A study of Mus musculus with 24 samples.

Results

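Ceramide is the branch point of sphingolipid metabolism. Serine palmitoyltransferase starts its synthesis, ceramide synthases attach a fatty acid whose length differs between the synthases, and a desaturase completes the molecule. Ceramide is then built into sphingomyelin and glycosphingolipids, released again by sphingomyelinases, or broken down to sphingosine by ceramidases. In the liver, ceramides are studied for their link to fat accumulation and insulin resistance.

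The genes followed here were 10 enzymes of this pathway, chosen by name: Sptlc1 and Sptlc2 (subunits of serine palmitoyltransferase), Cers2, Cers4, Cers5 and Cers6 (ceramide synthases), Degs1 (dihydroceramide desaturase), Smpd3 (a neutral sphingomyelinase), Asah1 (the lysosomal acid ceramidase) and Ugcg (glucosylceramide synthase). They are 10 of the 55421 rows of the count table, and all 10 passed the filter on low counts that left 13583 genes to test. PolyA RNA was sequenced from isolated hepatocytes of 24 male mice, in 4 groups of 6. Young mice were 6 months old and of the substrain C57BL/6N, old mice were 24 months old and C57BL/6J, and a difference between ages therefore cannot be told apart from one between substrains. Within each age, mice received a normal diet (ND, an 18% protein chow) or a high-fat diet (HFD, 58y1, with 60% of energy from fat) for 9 weeks. No transgene or drug was used in these groups, and every group was split over 2 batches named in the labels, with 3 mice in each batch except for old ND, with 2 and 4.

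Total counts ran from 9200332 to 22185069 a mouse. The old HFD libraries, at 9200332 to 13517632, were all shallower than every other library. Old HFD replicates 2 and 4 correlated least with their own group (mean r 0.873 and 0.891, against a highest value of 0.977). Hepatocyte markers were abundant in every group, with a summed level of 56139 to 168833 CPM (counts scaled to a common library total, with TMM-adjusted library sizes) for the 9 markers found of 10 listed. Markers of other liver cells were also present. The 12 Kupffer cell and macrophage markers summed to 2.22 to 103 CPM (young ND), 19.2 to 259 (young HFD), 79.1 to 1651 (old ND) and 113 to 859 CPM (old HFD). The 10 sinusoidal endothelial markers summed to 20.1 to 198, 48.0 to 435, 56.4 to 946 and 29.0 to 776 CPM in the same order. Within each group, every batch 2 mouse had a higher endothelial sum than every batch 1 mouse. The macrophage sums split so in young ND (2.22 to 5.83 CPM in batch 1, 57.6 to 103 CPM in batch 2), while the batches overlapped in the other groups. For the 10 lymphocyte markers the sums were 9.01 to 29.7, 5.36 to 20.2, 31.0 to 170 and 9.99 to 65.3 CPM in the same order of groups. Of these, Cd79a was at 0 in all young ND mice. The 9 stellate cell markers summed to 5.72 to 68.5, 16.8 to 202, 79.9 to 411 and 32.3 to 328 CPM. The 6 cholangiocyte markers summed to 6.26 to 15.3, 10.8 to 29.2, 8.72 to 54.6 and 17.9 to 42.4 CPM. In such bulk samples, fewer cells of a type and less RNA per cell cannot be told apart.

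The 4 ceramide synthases are paralogs, so their coding sequences are shown first to let a reader judge how far reads can be told apart. The stretch is the 60 bases with the most positions shared by all 4 genes, read from the GENCODE vM21 transcripts on GRCm38 (the assembly also called mm10). Capitals mark the 28 positions that are identical in all 4.
Cers2: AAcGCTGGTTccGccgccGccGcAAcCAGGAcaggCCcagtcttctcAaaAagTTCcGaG
Cers4: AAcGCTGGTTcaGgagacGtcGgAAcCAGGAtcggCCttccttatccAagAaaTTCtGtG
Cers5: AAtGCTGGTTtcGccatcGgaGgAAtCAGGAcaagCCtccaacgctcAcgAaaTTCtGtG
Cers6: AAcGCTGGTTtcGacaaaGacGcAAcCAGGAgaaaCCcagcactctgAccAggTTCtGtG
These stretches lie in coding exons, at chr3:95320994-95321053 (plus strand, exon 4) for Cers2, chr8:4518292-4518351 (plus, exon 4) for Cers4, chr15:99747044-99747103 (minus, exon 3) for Cers5 and chr2:68947291-68947350 (plus, exon 3) for Cers6. Over the whole coding sequence, Cers5 and Cers6 were the closest pair, with 67.0% identical bases among those aligned. The other 5 pairs shared 56.0% to 60.7%. The longest run without a mismatch was 18 bases, between Cers5 and Cers6.

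Levels of different genes are compared per length of exons, as CPM per kb of the union of exons. In young ND mice Cers2, which makes ceramides with very long acyl chains and is the main ceramide synthase of the liver, stood at 96.0 ± 4.50 CPM per kb (SD, n = 6). Degs1, which turns dihydroceramide into ceramide, followed at 29.5 ± 1.83 CPM per kb. Asah1 and Sptlc1 came next at 8.90 ± 0.489 and 8.53 ± 0.458 CPM per kb, and these 2 overlapped. Ugcg, which adds the first sugar of most glycosphingolipids, was at 3.27 ± 0.362 and Sptlc2 at 2.28 ± 0.185 CPM per kb. Cers6 was at 1.13 ± 0.432 CPM per kb. Cers5 (0.144 ± 0.0950), Smpd3 (0.141 ± 0.107) and Cers4 (0.0550 ± 0.0453) were lowest, and their ranges overlapped one another. The steps from Cers2 to Degs1, from Degs1 to Asah1, from Sptlc1 to Ugcg, from Ugcg to Sptlc2, from Sptlc2 to Cers6 and from Cers6 to Cers5 were without overlap between the young ND mice.

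**Figure D1:**
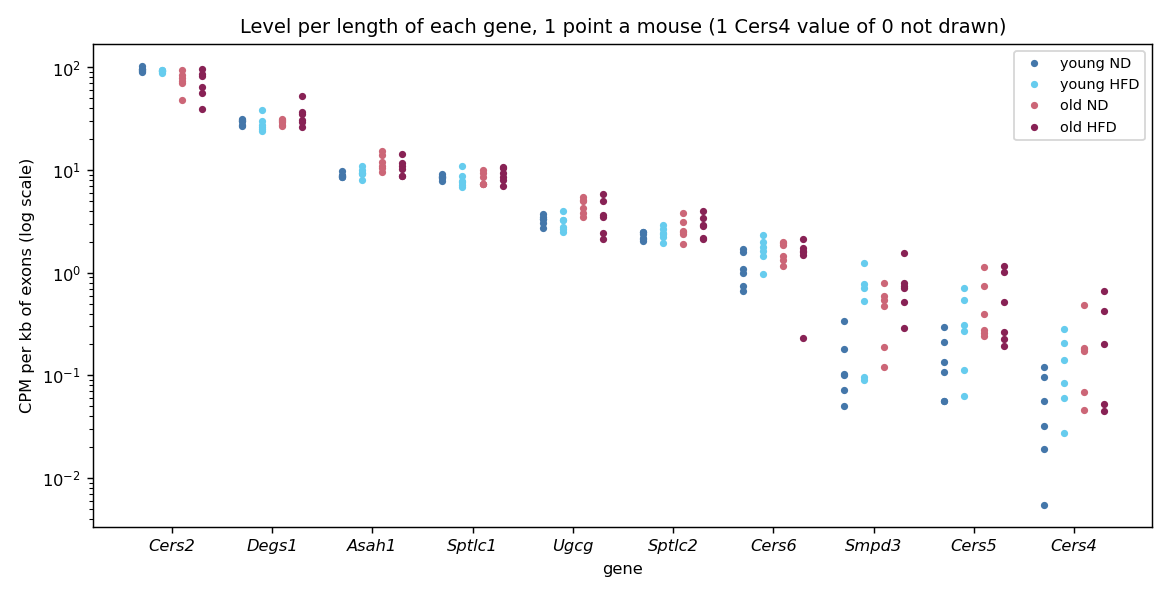
Level of each gene in CPM per kb of exons (log axis), with 1 point for each of the 24 mice, coloured by group; genes are ordered by their median over all mice and the single value of 0, Cers4 in old HFD replicate 2, is not drawn. Cers2 is at the top in every group and Cers4, Cers5 and Smpd3 lie at the bottom with wide spread.

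The deposited FPKM values gave the ceramide synthases another spacing. FPKM of Cers2 in young ND was 43.4 ± 1.23 and that of Cers6 was 0.0371 ± 0.0133 (SD, n = 6). Across genes, these FPKM values tracked CPM divided by the whole span of a gene with its introns: the median log2 ratio of the 2 quantities lay between 0.02 and 0.14 in the 24 libraries, against -2.41 to -2.21 for division by exon length. Cers6 spans 252842 bases with 8875 bases of exons, while Cers2 spans 8809 bases with 3676 bases of exons, so its FPKM is lowered far more. Levels between genes were therefore read from exon length.

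The ratio of Cers6, which makes ceramides with a palmitoyl chain, to Cers2 is given as a description. As a log2 ratio of CPM per kb it was -6.50 ± 0.58 for young ND, -5.82 ± 0.44 for young HFD, -5.53 ± 0.61 for old ND and -5.80 ± 1.36 for old HFD (mean ± SD, n = 6 each). The median level of Cers6 was 1.05%, 1.89%, 2.17% and 2.47% of that of Cers2 in this order, and all 4 groups overlapped. The log2 ratio of Sptlc2 to Sptlc1, the subunits of the first enzyme, was -1.90 ± 0.10, -1.74 ± 0.21, -1.64 ± 0.37 and -1.66 ± 0.24 in the same order of groups, also with overlap.

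The largest shift of a member was seen between old HFD and young ND, the comparison in which both age and diet differ. Smpd3, Cers5 and Cers4 were higher and Cers2 was lower in old HFD. The other 6 members did not pass the threshold of an adjusted p of 0.05 (edgeR quasi-likelihood test with batch as a term, Benjamini-Hochberg adjustment over all 13583 genes). Over all genes 30.2% were called in this comparison, 17.3% higher and 12.9% lower, and 4 of 10 members is to be read against that share. The median log2 fold change of the members was 0.31, against 0.04 over all tested genes. No member had groups without overlap, where 7.26% of all genes did.

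**Figure D2:**
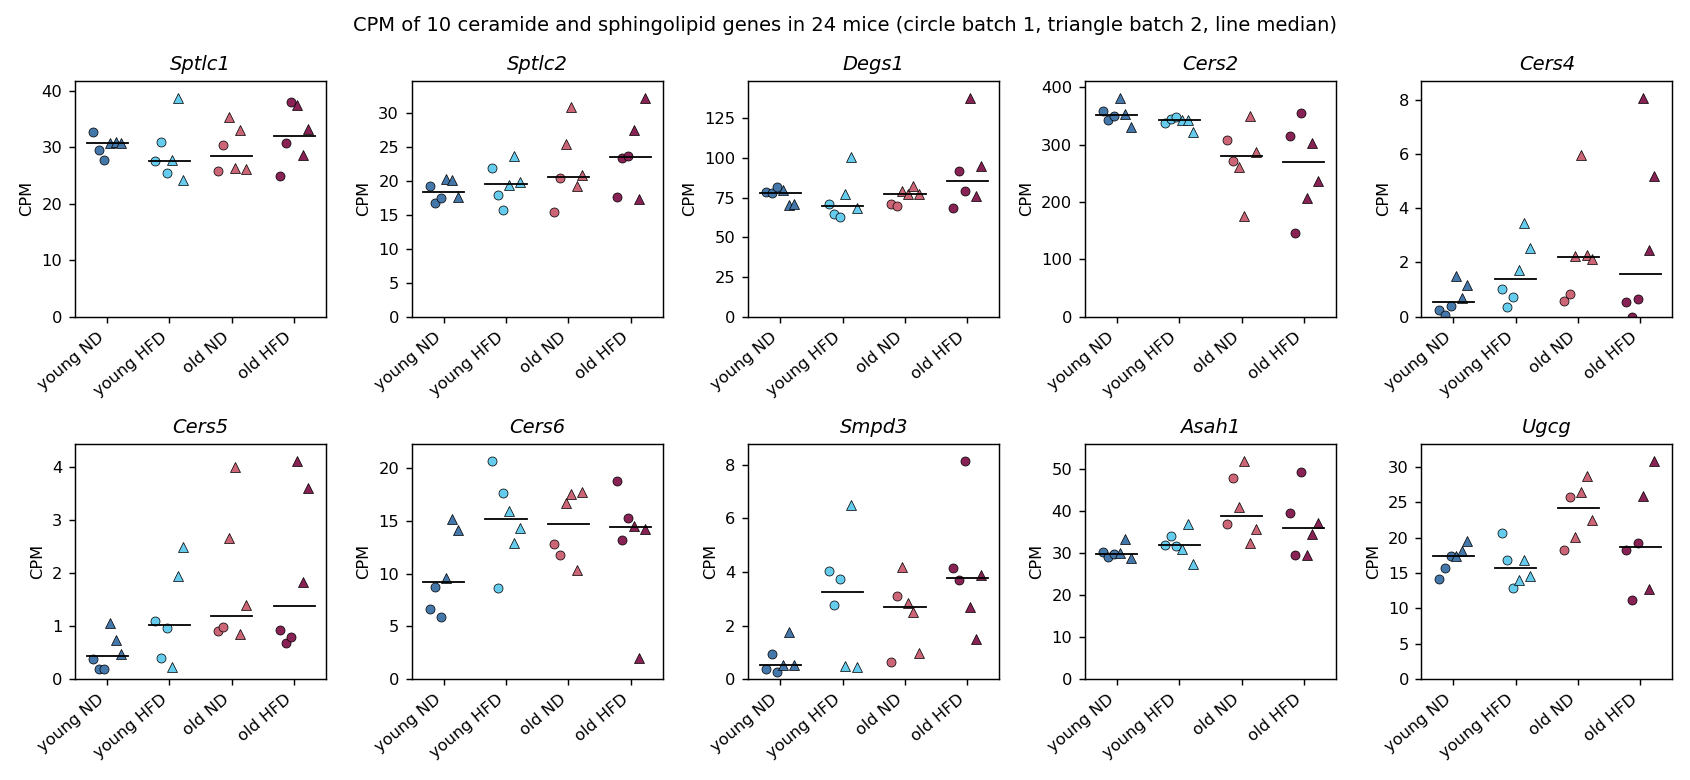
CPM of each of the 10 genes (linear axes from 0) in every mouse by group; circles are batch 1, triangles batch 2 and lines the group medians. Sptlc1 and Degs1 keep similar medians in the 4 groups, while Smpd3, Cers5 and Cers4 spread upward outside young ND and Cers2 spreads downward in the old groups.

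Smpd3 (ENSMUSG00000031906, chromosome 8, 106252548 to 106337988, minus strand) releases ceramide from sphingomyelin at the inner face of membranes. In young ND its lowest, median and highest values were 0.265, 0.532 and 1.78 CPM. In old HFD they were 1.5, 3.79 and 8.13 CPM. The groups overlapped only through old HFD replicate 5 (1.5 CPM) and young ND replicate 5 (1.78 CPM). The log2 fold change was 2.41 ± 0.61 (SE), with an adjusted p of 0.00603 (edgeR). In batch 1 alone it was 3.30 ± 0.64 (adjusted p 0.0124, edgeR), and in batch 2 alone 1.52 ± 0.91 (adjusted p 0.27, edgeR). Counts were low, from 4 to 107 a mouse. Its exons share 247 bases with those of Prmt7 on the opposite strand, and whether counting used strand is not given in the sources used here.

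Cers5 (ENSMUSG00000023021, chromosome 15, 99734881 to 99772885, minus strand), a synthase of palmitoyl-chain ceramides, ranged from 0.199 over 0.430 to 1.06 CPM in young ND (lowest, median, highest). In old HFD it ranged from 0.691 over 1.38 to 4.11 CPM. Old HFD replicates 4 and 6, at 4.11 and 3.60 CPM, were the highest, and the 3 batch 1 mice, at 0.691 to 0.936 CPM, lay within the pooled young ND range but above the 3 young ND mice of their own batch, of which the highest was 0.378 CPM. The log2 fold change was 1.86 ± 0.48 (SE), with an adjusted p of 0.00631 (edgeR). Within batch 1 it was 1.56 ± 0.66 and within batch 2 it was 2.07 ± 0.75, with adjusted p of 0.159 and 0.0965 (edgeR).

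Cers4 (ENSMUSG00000008206, chromosome 8, 4493026 to 4531680, plus strand), another ceramide synthase, had lowest, median and highest values of 0.0671, 0.543 and 1.48 CPM in young ND. In old HFD these were 0, 1.56 and 8.06 CPM. The value of 0 was in old HFD replicate 2 and the highest in replicate 4, so old HFD held both ends of the range. The log2 fold change was 1.71 ± 0.53 (SE), with an adjusted p of 0.0179 (edgeR). Without old HFD replicate 4 it was 1.34 (adjusted p 0.0659, edgeR), and without young ND replicate 5 it was 1.55 (adjusted p 0.0512, edgeR). The call was also lost with edgeR without batch (adjusted p 0.0776), with only the mice compared (adjusted p 0.0629, edgeR) and with limma (adjusted p 0.118). Within batch 1 the log2 fold change was 0.72 ± 1.05 and within batch 2 it was 2.24 ± 0.54, with adjusted p of 0.688 and 0.0436 (edgeR).

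Cers2 (ENSMUSG00000015714, chromosome 3, 95314791 to 95323599, plus strand) had lowest, median and highest values of 332, 352 and 381 CPM in young ND. In old HFD they were 145, 270 and 356 CPM. Old HFD replicates 2, 4 and 6 were lowest, at 145, 206 and 237 CPM. In all, 5 of the 6 old HFD mice lay below every young ND mouse, and replicate 3, at 356 CPM, lay among them. Cers2 fell by 0.44 on the log2 scale (SE 0.16, adjusted p 0.0456, edgeR). This call was lost in 19 of the 24 fits that left out 1 mouse, with the largest adjusted p, 0.129 (edgeR), without old HFD replicate 4, and without old HFD replicates 2 and 4 together the log2 value was -0.20 (adjusted p 0.307, edgeR). Within batch 1 it was -0.39 ± 0.26 and within batch 2 it was -0.51 ± 0.22, with adjusted p of 0.36 and 0.15 (edgeR). Its exons share 75 bases with those of Setdb1 and 144 bases with those of 6330562C20Rik, both on the opposite strand.

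The 6 members without a call differed less. Sptlc2 had a log2 fold change of 0.34 ± 0.14 (adjusted p 0.0704), Asah1 of 0.27 ± 0.13 (adjusted p 0.0984) and Degs1 of 0.24 ± 0.13 (adjusted p 0.15; all edgeR). The Degs1 value was 0.14 without old HFD replicate 4 and 0.34 without old HFD replicate 5 (adjusted p 0.0451 for the latter, edgeR). Sptlc2 ran from 16.7 over 18.4 to 20.2 CPM in young ND and from 17.3 over 23.5 to 32.1 CPM in old HFD, where 4 of the 6 mice lay above all young ND mice. Cers6 had a value of 0.41 ± 0.32 (adjusted p 0.348, edgeR). In old HFD it ran from 2.04 over 14.4 to 18.7 CPM, and the lowest value, that of replicate 5, was far from the others. The Cers6 value was 1.12 ± 0.30 within batch 1 (adjusted p 0.0467, edgeR) and -0.31 ± 0.46 within batch 2 (adjusted p 0.676, edgeR). The batch 2 value is smaller in size than its SE, and old HFD replicate 5 is a batch 2 mouse. Ugcg (0.20 ± 0.18) and Sptlc1 (0.08 ± 0.12) had the smallest values. When 1 mouse was left out, Ugcg lay between 0.04 (without old HFD replicate 6) and 0.34 (without old HFD replicate 5), and Sptlc1 between 0.05 and 0.16. Sptlc1 ran from 27.7 to 32.6 CPM in young ND and from 25.0 to 37.9 CPM in old HFD.

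**Figure D3:**
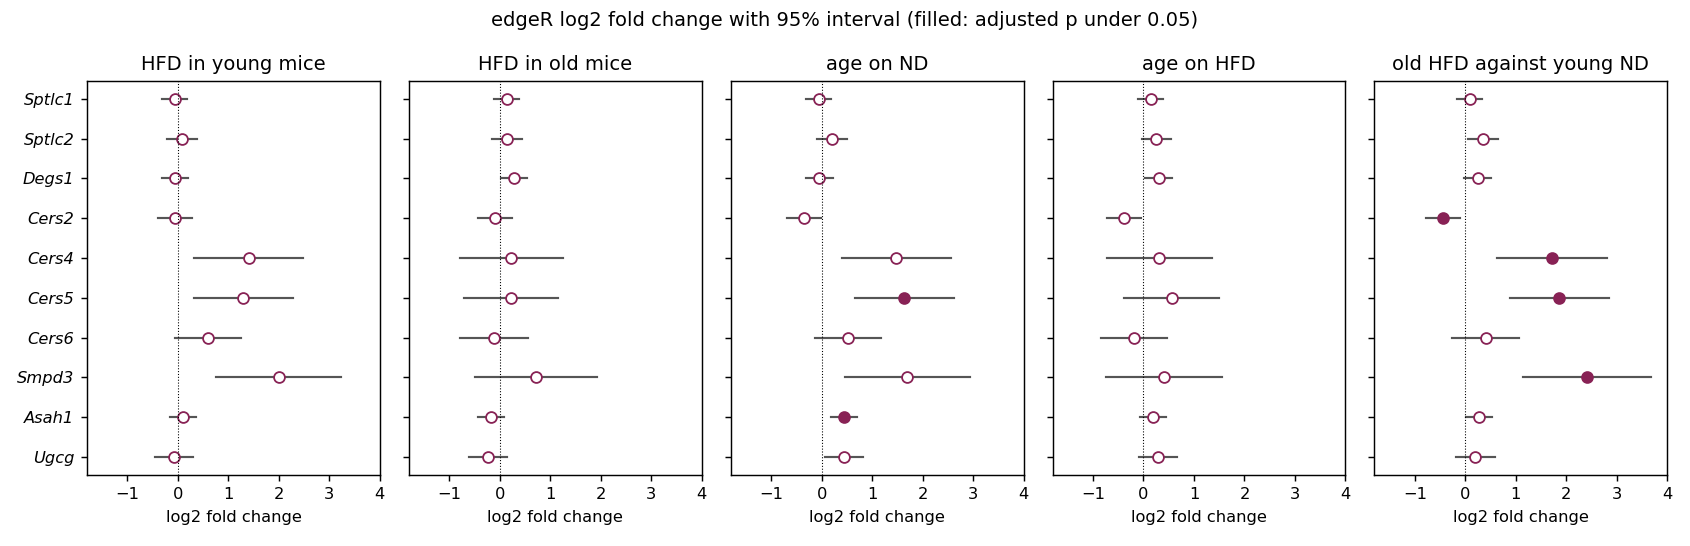
Log2 fold change of the 10 genes in 5 comparisons (points) with 95% intervals (lines); filled points passed an adjusted p of 0.05 in edgeR. Filled points are Cers5 and Asah1 for age on ND, and Cers2, Cers4, Cers5 and Smpd3 for old HFD against young ND.

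Markers of other cells moved with these genes. In old HFD against young ND, 11 of 12 macrophage, 8 of 10 endothelial, 6 of 8 tested stellate, 3 of 5 tested lymphocyte and 1 of 2 tested cholangiocyte markers were called higher, and none lower. Of the 9 tested hepatocyte markers 8 had a negative value, with a median log2 fold change of -0.50, and 3 were called lower and 1 higher. The 5 mice with the highest summed endothelial markers, 333 to 946 CPM (old ND replicate 4, old HFD replicates 4 and 6, young HFD replicates 5 and 6), were also the 5 with the highest Cers4, 2.55 to 8.06 CPM. The 3 mice with the lowest sums, 20.1 to 29.0 CPM (young ND replicates 1 and 2, old HFD replicate 2), had the 3 lowest Cers4 values, 0 to 0.236 CPM. This view was chosen after the values were seen. The 3 highest Cers5 values were those of old HFD replicates 4 and 6 and old ND replicate 4, which held the 3 highest endothelial sums. Cers2 was lowest in old HFD replicate 2, where the endothelial sum was 29.0 CPM, and in old ND replicate 4, where it was 946 CPM. Smpd3 was highest in old HFD replicate 3 (8.13 CPM), with an endothelial sum of 66.3 CPM and a macrophage sum of 191 CPM. The cholangiocyte sum of that mouse, 42.4 CPM, was the highest of old HFD. Replicate 5, with the lowest Smpd3 of old HFD, had its lowest cholangiocyte sum, 17.9 CPM. In old ND the highest cholangiocyte sum was in replicate 4 (54.6 CPM) and the highest Smpd3 in replicate 3. These sums too were picked after the values were seen. The part of other cells in these results was not tested.

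**Figure D4:**
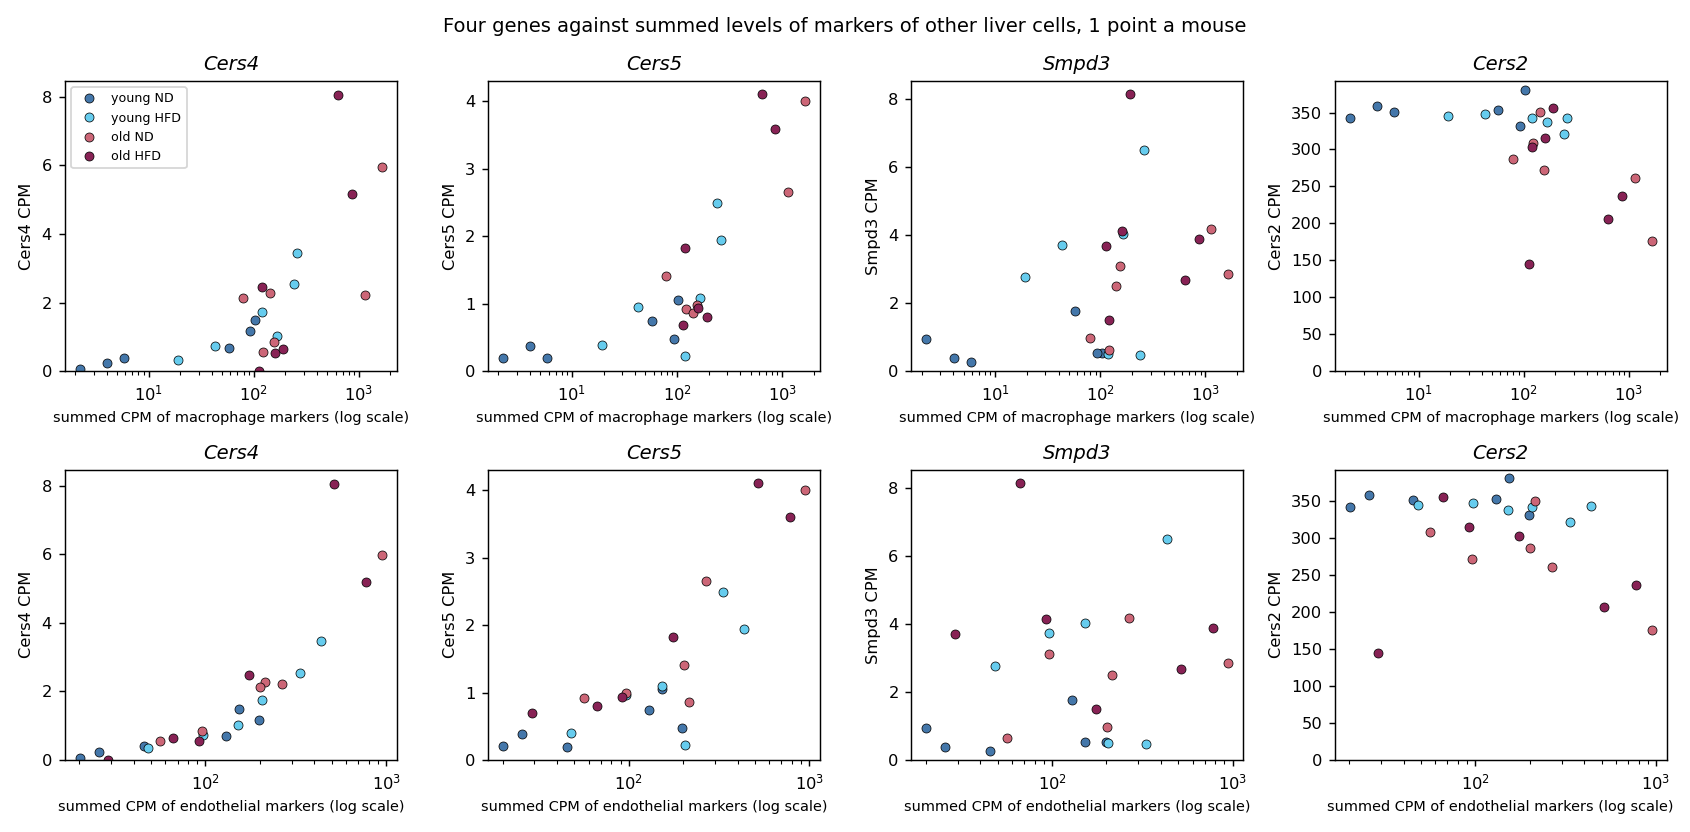
CPM of Cers4, Cers5, Smpd3 and Cers2 (vertical, linear) against the summed CPM of 12 macrophage markers (upper row) and 10 endothelial markers (lower row, both log axes), 1 point for each of the 24 mice. Cers4 climbs with the endothelial sum up to 8.06 CPM, Smpd3 has its highest point at a low endothelial sum, and the lowest Cers2 points lie at both ends of that sum.

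Age was compared on each diet. On ND, Cers5 and Asah1 rose in old mice, 2 of 10 members, where 8.5% of all tested genes were called and 7.26% were higher. The median log2 fold change of the members was 0.44, against 0.01 over all tested genes, and 6 members had an unadjusted p under 0.05, as did 3020 of the 13583 genes. Again no member had groups without overlap, against 3.8% of all genes.

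Asah1 (ENSMUSG00000031591, chromosome 8, 41340197 to 41374773, minus strand), which splits ceramide in lysosomes, ranged from 28.8 over 29.9 to 33.3 CPM in young ND (lowest, median, highest). In old ND it ranged from 32.3 over 38.8 to 51.8 CPM. Only old ND replicate 5 (32.3 CPM) lay below young ND replicate 5 (33.3 CPM). The log2 fold change was 0.45 ± 0.13 (SE), with an adjusted p of 0.0268 (edgeR). The call was lost in 8 of 24 fits without 1 mouse (young ND replicates 1, 2, 3, 4 and 6, and old ND replicates 2, 3 and 4), in which the log2 value was 0.38 to 0.46, and without the filter on low counts (0.42, adjusted p 0.0928, edgeR). With limma the call was lost too (adjusted p 0.0869). Within batch 1 and batch 2 the log2 fold change was 0.53 ± 0.21 and 0.38 ± 0.16, with adjusted p of 0.416 and 0.269 (edgeR).

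Cers5 in old ND had a lowest, median and highest value of 0.858, 1.2 and 4.0 CPM. Old ND replicates 3 and 4 (2.66 and 4.0 CPM) were far above the young ND maximum of 1.06 CPM, and 3 of the other 4 lay within the pooled young ND range. Of these, replicates 1 and 2 (0.918 and 0.986 CPM) lay above the young ND mice of their own batch, batch 1. The log2 fold change was 1.63 ± 0.47 (SE), with an adjusted p of 0.0324 (edgeR). It was 1.41 (adjusted p 0.108, edgeR) without old ND replicate 4, and the call was also lost without young ND replicates 2, 3, 5 or 6 and without old ND replicates 2 or 3, where the log2 value was 1.54 to 1.65. With edgeR without batch (adjusted p 0.0868) and with limma (adjusted p 0.127) the call was lost too. Within batch 1 and batch 2 the log2 fold change was 1.83 ± 0.71 and 1.53 ± 0.71, with adjusted p of 0.375 and 0.298 (edgeR).

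Smpd3 and Cers4 had log2 fold changes of similar size for age on ND, 1.70 ± 0.60 and 1.48 ± 0.53, and did not pass (both with an adjusted p of 0.0811, edgeR). With DESeq2 with batch both were called (adjusted p 0.032 and 0.0249), and without the filter on low counts both were called too (adjusted p 0.000555 and 0.0325, edgeR). Smpd3 in old ND ran from 0.636 over 2.68 to 4.18 CPM, and old ND replicates 1 and 6 (0.636 and 0.979 CPM) stayed in the young ND range. Cers4 in old ND ran from 0.565 over 2.18 to 5.96 CPM. Ugcg ran from 14.1 over 17.4 to 19.6 CPM in young ND and from 18.2 over 24.1 to 28.7 CPM in old ND. Its log2 fold change was 0.44 ± 0.18 (SE), with an adjusted p of 0.148 (edgeR). Beside these values, all 12 macrophage, 7 of 8 tested stellate, 5 of 10 endothelial, 3 of 5 tested lymphocyte and 0 of 2 tested cholangiocyte markers were called higher in old ND. The part of other cells was not tested.

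On HFD, 0 of 10 members were called between old and young mice by edgeR, where 2.24% of all genes were. Cers2 (-0.38 ± 0.16, adjusted p 0.186, edgeR) and Degs1 (0.30 ± 0.13, adjusted p 0.184, edgeR) had an unadjusted p under 0.05, as did 2848 of the 13583 genes, and DESeq2 called 0 members as well. The lowest, median and highest Cers2 values were 321, 343 and 348 CPM in young HFD, so 5 of the 6 old HFD mice were below all young HFD mice. Degs1 ran from 62.8 over 70.0 to 101 CPM in young HFD and from 68.6 over 85.4 to 138 CPM in old HFD, with the highest value in old HFD replicate 4. Without that mouse the Degs1 value was 0.16 (adjusted p 0.468, edgeR). The Smpd3, Cers5 and Cers4 log2 values were 0.41 ± 0.56, 0.56 ± 0.45 and 0.32 ± 0.51. Single mice moved these values: Smpd3 lay between 0.08 (without old HFD replicate 3) and 0.92 (without young HFD replicate 5), Cers5 between 0.28 (without young HFD replicate 4) and 0.72 (without young HFD replicate 1), and Cers4 between -0.07 (without old HFD replicate 4) and 0.59 (without old HFD replicate 2). The 95% intervals of the fit with all mice, -0.74 to 1.57, -0.38 to 1.49 and -0.73 to 1.36, include 0. They overlap the intervals of the same genes on ND, 0.46 to 2.94, 0.66 to 2.61 and 0.40 to 2.57. For Cers4 the value was -0.83 ± 0.99 in batch 1, smaller in size than its SE, and 1.01 ± 0.52 in batch 2.

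Diet was compared within each age. In young mice 0 of 10 members were called by edgeR, where 3.5% of all genes were. An unadjusted p under 0.05 was found for 3 of 10 members and 2885 of the 13583 genes. DESeq2 with batch called 2 members, Smpd3 and Cers4. Smpd3 ran from 0.474 over 3.25 to 6.49 CPM in young HFD. Young HFD replicates 1, 2, 3 and 5 (2.77 to 6.49 CPM) lay above all young ND mice, and replicates 4 and 6 (0.504 and 0.474 CPM) lay among them. The log2 fold change was 1.99 ± 0.60 (SE), with an adjusted p of 0.0629 (edgeR). It was 2.73 ± 0.64 within batch 1 and 1.41 ± 0.91 within batch 2, with adjusted p of 0.0695 and 0.698 (edgeR). Cers4 had a log2 fold change of 1.40 ± 0.53 (adjusted p 0.124, edgeR) and Cers5 of 1.30 ± 0.47 (adjusted p 0.114, edgeR). Cers4 ran from 0.339 over 1.38 to 3.45 CPM in young HFD and Cers5 from 0.224 over 1.03 to 2.49 CPM, both across the young ND range. In these mice 12 of 12 macrophage, 10 of 10 endothelial and 8 of 8 tested stellate markers had a positive log2 value, with medians of 2.22, 1.40 and 1.62, and 1 of each list was called higher. Of the 2 tested cholangiocyte markers 1 was positive and 0 were called. Young HFD replicates 4 and 6, with the lowest Smpd3, had the lowest cholangiocyte sums of the group (10.8 CPM in replicate 4). The sums of the other mice ran from 13.6 CPM in replicate 2 to 29.2 CPM in replicate 1. Smpd3 was highest in replicate 5, not in replicate 1. The cholangiocyte sums were picked after the values were seen. The part of other cells was not tested.

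Cers6 in young HFD ran from 8.59 over 15.2 to 20.6 CPM, against 5.90 over 9.15 to 15.1 CPM in young ND. Its log2 fold change was 0.60 ± 0.32 (SE), with an adjusted p of 0.283 (edgeR), and without the filter on low counts it was called (0.59 ± 0.19, adjusted p 0.0332, edgeR). The value was 1.13 ± 0.30 within batch 1 and 0.18 ± 0.45 within batch 2. The other 6 members had smaller values. Sptlc1 (-0.06 ± 0.12), Sptlc2 (0.09 ± 0.14), Degs1 (-0.06 ± 0.13), Cers2 (-0.06 ± 0.16), Asah1 (0.09 ± 0.12) and Ugcg (-0.08 ± 0.18) had 95% intervals that stayed between -0.46 and 0.38 on the log2 scale.

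In old mice 0 of 10 members were called for HFD by edgeR or by DESeq2, where 3.01% of all genes were called by edgeR. Degs1 alone of the members had an unadjusted p under 0.05, as did 2990 of the 13583 genes, with a log2 fold change of 0.29 ± 0.13 (SE) and an adjusted p of 0.188 (edgeR). It was 0.10 ± 0.11 without old HFD replicates 2 and 4. Degs1 in old ND ran from 70.0 over 77.3 to 82.4 CPM. Smpd3 had the highest log2 value, 0.71 ± 0.58, with a 95% interval of -0.49 to 1.92. Asah1 and Ugcg had values of -0.17 ± 0.13 and -0.24 ± 0.18. When 1 mouse was left out, Smpd3 ran from 0.44 to 0.95, Asah1 from -0.25 to -0.07 and Ugcg from -0.41 to -0.10.

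Whether the diet difference itself depended on age was tested as an interaction. By edgeR it called 0 members and 0 genes in all (0%). No member had an unadjusted p under 0.05, DESeq2 with batch called 0 members, and 1247 genes had an unadjusted p under 0.05. The widest member values were -1.28 ± 0.82 for Smpd3, -1.17 ± 0.71 for Cers4 and -1.08 ± 0.65 for Cers5, with 95% intervals of -2.96 to 0.40, -2.64 to 0.30 and -2.41 to 0.25. In the same interaction all 12 macrophage, 10 endothelial and 8 tested stellate markers were negative, with medians of -2.46, -1.34 and -1.81 on the log2 scale. Of these, 12, 5 and 7 had an unadjusted p under 0.05 and none was called, and the part of other cells was not tested.

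The other genes of the pathway were read from 6 lists of 52 genes, of which 42 were tested. HFD in young mice called 2 higher and 2 lower, HFD in old mice 0 higher and 1 lower, age on ND 6 higher and 2 lower, age on HFD 1 higher and 0 lower, and old HFD against young ND 12 higher and 7 lower. The share called over all genes was 3.5%, 3.01%, 8.5%, 2.24% and 30.2% in this order. The median log2 fold change of the 42 genes in these 5 comparisons was 0.09, 0.09, 0.03, 0.04 and 0.19, against 0.01, -0.01, 0.01, 0.01 and 0.04 over all tested genes. The interaction called 0 of 42.

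Hexa, which encodes a subunit of a lysosomal enzyme that trims gangliosides, had log2 values of 0.93 ± 0.15 for old HFD against young ND (adjusted p 0.000215, edgeR) and 0.60 ± 0.15 for age on ND (adjusted p 0.0138, edgeR).

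B4galt6, which adds galactose to glucosylceramide, ran from 0 over 0.154 to 0.529 CPM in young ND. It ran from 0.572 over 1.05 to 8.50 CPM in old ND and from 0.546 over 1.38 to 7.12 CPM in old HFD. Its log2 fold changes against young ND were 3.41 ± 0.67 and 3.52 ± 0.67. The highest values were those of old ND replicate 4 and old HFD replicate 6, which also had the highest summed endothelial markers, and the part of other cells was not tested. Gltp, a glycolipid transfer protein, rose by 2.83 ± 0.63 on the log2 scale for age on ND. Gltp, Cerk and Acer2 were also highest in old ND replicate 4, at 9.07, 12.4 and 45.6 CPM against group medians of 1.62, 2.19 and 6.52 CPM. In old HFD they were highest in replicate 6, at 7.70, 7.92 and 31.7 CPM against medians of 2.35, 2.76 and 7.93 CPM, and the part of other cells was not tested here either. In HFD-fed young mice, Sgpl1, the lyase that breaks down sphingosine 1-phosphate, fell by 0.57 (SE 0.16, adjusted p 0.0455, edgeR) and Apom, its carrier on lipoproteins, fell by 0.63 (SE 0.17, adjusted p 0.045, edgeR). In this comparison 1 list gene was called without batch, with the replicate block, with limma or in batch 1 alone, and 0 in batch 2 alone, in place of 4. Gm2a, the activator of ganglioside breakdown, fell by 0.87 (SE 0.23, adjusted p 0.0365, edgeR) for HFD in old mice, a call lost with only the mice compared, with limma, in either batch alone and without old HFD replicates 2 and 4. Sptssa, a small subunit of serine palmitoyltransferase, rose by 0.54 (SE 0.14, adjusted p 0.0448, edgeR) for age on HFD, a call lost in these fits and also without batch and with the replicate block. Among the fits without 1 mouse, the Gm2a call was lost at least without young HFD replicate 1. The Sptssa call was lost at least without young ND replicate 1.

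**Figure D5:**
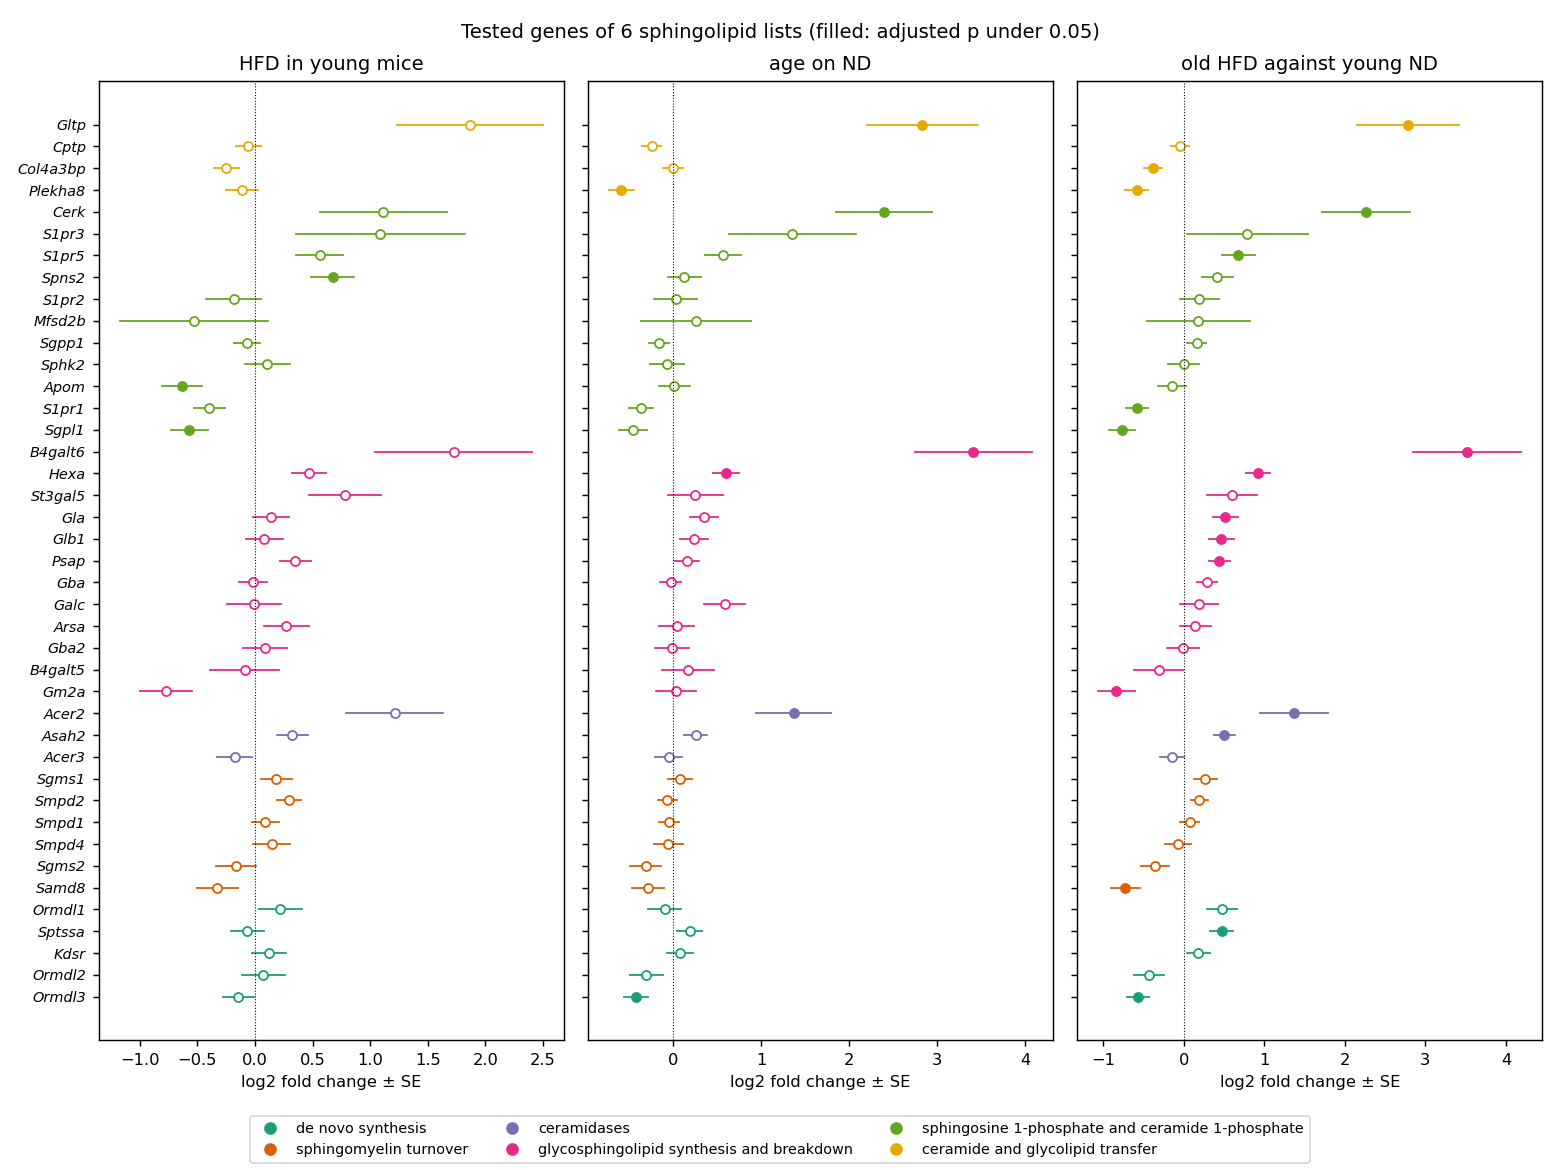
Log2 fold change ± SE of 41 tested genes of 6 sphingolipid lists in 3 comparisons, coloured by list; filled points passed an adjusted p of 0.05 in edgeR. The counts of filled points are 3, 7 and 18, and B4galt6, Gltp and Cerk lie farthest to the right in the last comparison.

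By list, old HFD against young ND is described next, with genes outside the 3 smallest adjusted p named after their values were seen. Of 13 tested glycosphingolipid genes 6 rose, among them B4galt6 and, of lysosomal breakdown, Hexa, the alpha-galactosidase Gla (0.52 ± 0.16), the beta-galactosidase Glb1 (0.47 ± 0.16) and the saposin precursor Psap (0.44 ± 0.14). Gm2a, also a lysosomal activator, fell by 0.84 (SE 0.23). Of 3 tested ceramidases, Acer2 (1.37 ± 0.43) and Asah2 (0.51 ± 0.13) rose. Of 5 genes of de novo synthesis, Sptssa rose (0.47 ± 0.14) and Ormdl3, an inhibitor of serine palmitoyltransferase, fell by 0.57 (SE 0.13). Of 6 genes of sphingomyelin turnover, Samd8 fell by 0.73 (SE 0.18).

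Of 11 genes of sphingosine 1-phosphate and ceramide 1-phosphate, the ceramide kinase Cerk (2.26 ± 0.55) and the receptor S1pr5 (0.68 ± 0.20) rose, while the receptor S1pr1 fell by 0.58 (SE 0.14) and Sgpl1 fell by 0.77 (SE 0.16). Of 4 transfer proteins, Gltp rose (2.79 ± 0.64), and Plekha8 and Col4a3bp, the ceramide transfer protein, fell by 0.58 (SE 0.14) and 0.38 (SE 0.11). Over all genes 30.2% were called in this comparison. The other calls were the exporter of sphingosine 1-phosphate Spns2 for HFD in young mice (0.67 ± 0.19), and for age on ND Cerk (2.40 ± 0.55), Acer2 (1.37 ± 0.43), Ormdl3 (-0.43 ± 0.13) and Plekha8 (-0.59 ± 0.14).

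Outside the lists, the gene most like each called member was found by the root mean square difference of z-scored log2 CPM over the 24 mice, among 13485 genes. This was Aph1a for Cers2 (0.264), Amotl1 for Cers4 (0.230), Tagln2 for Cers5 (0.417), Ppt1 for Smpd3 (0.556) and Atp2a3 for Asah1 (0.484). Of the other 9 members, the closest to Cers4 was Cers5 and the closest to Cers5 was Cers4, at 0.651. These are descriptions, since the mice share batches and groups.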

How the data were processed

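The deposited table of counts was made by the authors, who aligned reads to mm10 (Gencode vM23) with STAR 2.7.3a and counted reads per gene with HTSeq 0.11.2. The deposited FPKM table was computed by the authors with CuffLinks and, by its name, adjusted between batches with ComBat. The use of strand and the treatment of duplicates are not given in the sources used here. Ages and diets follow the labels; the study's text names another control diet and other ages.

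The 10 genes and all lists were chosen with earlier results of these data known. Counts were normalised by TMM, filtered with filterByExpr (default minimum count 10), and tested with the quasi-likelihood test of edgeR 4.0.16 in R 4.3.3 on all 24 mice, with group and batch as terms and Benjamini-Hochberg adjustment at 0.05. The SE is the log2 fold change divided by the square root of F. DESeq2 1.42.0 and limma 3.58.1 (log2(FPKM + 1), a fold change on that scale) were alternatives, with others given in the closing section. CPM per kb used exon unions of GENCODE vM21, and FPKM, chosen at first as the level per length, is given beside it because it tracked the gene span. Named genes of the lists were the 3 with the smallest adjusted p per comparison and all others were named after their values were seen. Counts over the lists include 1 gene that is not reported here. No 2 mice of a group agreed within sampling noise (lowest chi-square per degree of freedom 15.9). In counts simulated for age on ND over 13583 genes, the test recovered 1%, 54% and 89% of 200 genes changed by 0.5, 1 and 2 on the log2 scale. These genes were drawn over all levels, and 1155 genes were called in the data, so the shares do not describe the low-count members. Depth was 9200332 to 22185069 counts a mouse. Each edgeR p-value weighs a group difference against a spread between mice that was estimated over all 4 groups and partly shared across genes.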

Additional observations from a re-analysis of the deposited data

Results flagged for a closer look

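In 3 of the 40 combinations of gene and group, 1 mouse stood apart from the other 5 by Dixon's criterion, where chance flags about 1 in 20. Cers4 in old ND replicate 4 was 5.96 CPM, with the next mouse at 2.29 CPM. In that mouse the macrophage markers summed to 1651 CPM and the endothelial markers to 946 CPM, the highest of the 24, and the part of other cells was not tested.

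Cers6 in old HFD replicate 5 was 2.04 CPM, from 19 counts, with the next mouse of the group at 13.2 CPM. Without this mouse the log2 fold change of Cers6 for old HFD against young ND was 0.70 (adjusted p 0.0212, edgeR) in place of 0.41 (adjusted p 0.348, edgeR). Asah1 in young ND replicate 5 was 33.3 CPM, with the next mouse at 30.3 CPM.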

How the results depend on the processing

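The count of members called was 0 under every alternative run for HFD in old mice, age on HFD and the interaction. For HFD in young mice it was 2 with DESeq2 with batch, 1 with DESeq2 without batch, and 2 without a filter on low counts, with only the mice compared, and without old HFD replicates 2 and 4 (an alternative chosen after seeing the data), and 0 to 2 when 1 mouse was left out. Smpd3 passed there without young ND replicate 5, young HFD replicates 4 or 6, or old HFD replicates 2 or 5, at 1.99 to 2.50 on the log2 scale. For age on ND it was 4 with DESeq2 with batch or only the mice compared, 1 with edgeR without batch, 0 with limma or in either batch alone, and 0 to 3 without 1 mouse. For old HFD against young ND it was 2 with edgeR without batch, only the mice compared, limma or batch 1 alone, 1 in batch 2 alone, and 2 to 7 without 1 mouse, with 7 reached without old HFD replicate 5. With RLE it was 4, with Sptlc2 (0.40, adjusted p 0.0489, edgeR) called in place of Cers2.

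For the 42 tested list genes, HFD in young mice gave 10 with DESeq2 with batch or no filter, 1 with edgeR without batch, the replicate block, limma or batch 1 alone, 2 with RLE, 13 with only the mice compared, 0 in batch 2 alone, 8 without the 2 mice, and 1 to 7 without 1 mouse. HFD in old mice gave 3 with DESeq2 with batch or no filter, 2 with DESeq2 without batch, 0 with only the mice compared, limma, either batch alone or without the 2 mice, and 0 to 4 without 1 mouse. Age on ND gave 5 with edgeR without batch, 1 with limma, 0 in either batch alone, and 6 to 11 without 1 mouse. Age on HFD gave 4 with DESeq2 with batch or no filter, 0 with edgeR without batch, the replicate block, only the mice compared, limma, either batch alone or without the 2 mice, and 0 to 4 without 1 mouse. Old HFD against young ND gave 5 and 4 in batches 1 and 2 alone and 18 to 23 without 1 mouse, and the interaction gave 2 without a filter. The cause was not tested; batches alone hold fewer mice.

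Over all genes, DESeq2 with batch called 1213, 1085, 1761, 850, 5008 and 7 genes for HFD in young and old mice, age on ND and HFD, old HFD against young ND and the interaction. The fit of only the mice compared called 2302, 15, 1331, 48 and 2094 in the first 5, of 12034 to 12587 genes tested. The replicate block gave 283 for HFD in young mice, 131 for age on HFD and 1 for the interaction. Leaving out 1 mouse gave 146 to 998, 84 to 823, 586 to 1592, 40 to 813 and 3314 to 4722 in the first 5 and 0 to 1 for the interaction. The shares over all genes move with these counts. No filter gave 1473, 1108, 2053, 1235, 4623 and 587 of 32336 genes. Without batch, edgeR gave 174, 266, 628, 116, 3049 and 0 of 13583. By limma it was 152, 172, 39, 33, 2237 and 0 of 26244. Batch 1 alone gave 130, 15, 93, 9, 919 and 0 of 13543, and batch 2 alone 9, 16, 2, 0, 617 and 0 of 14243. The fit without the 2 mice gave 1138, 227, 1923, 37, 2686 and 0 of 13991. Since the genes tested differ, these counts are not shares. DESeq2 without batch gave 893 for HFD in old mice, 565 for age on HFD and 3 for the interaction. DESeq2 was run on 32336 genes, without the filter on low counts, so tool and filter changed together; its median log2 fold change over those genes in old HFD against young ND was 0.15 with and 0.17 without batch, against 0.04 over the 13583 filtered genes.

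Mice with the same replicate number are different animals. Their deviations from the group means correlated by 0.18 on average over 36 pairs (-0.32 to 0.55), and by 0.00 with batch means removed, so the numbers do not pair them. When the number was used as a replicate block instead of batch, 0, 0, 3, 0, 4 and 0 members were called in the 6 comparisons, and Cers4 passed for age on ND (2.02, adjusted p 0.0227, edgeR).

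On FPKM, the log2 ratio of Cers6 to Cers2 was -10.27 and -9.47 in young mice on ND and HFD and -9.21 and -9.28 in old mice on ND and HFD, against -5.23, -4.55, -4.25 and -4.53 on counts, and that of Sptlc2 to Sptlc1 was -1.61, -1.45, -1.38 and -1.36, in place of -0.71, -0.55, -0.45 and -0.47. Of 2090 alternative log2 fold changes of members, 59 lost and 40 gained a call and 0 called values changed sign. Only values called in the main fit could lose a call, each over 24 fits without 1 mouse and 11 other alternatives. Cers2 lost it in 19 and 8 of these, Asah1 in 8 and 4, and Cers5 for age on ND in 7 and 4. For old HFD against young ND, Cers4 lost it in 2 and 4, Cers5 in 0 and 2 and Smpd3 in 0 and 1. Of uncalled values, 63 moved by at least the SE of the main fit and 31 had the opposite sign. Low counts limit Cers4, Cers5 and Smpd3 (0 to 107 a mouse).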
